A study of Mus musculus with 16 samples.

Results

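The genes of the mammalian Hox clusters were followed through the stepwise conversion of mouse iPSCs into tenocytes and in the Achilles tendon of *Scx* mutant mice. Members were the genes whose mouse symbol is Hoxa, Hoxb, Hoxc or Hoxd followed by a number, which gave 39 genes among the 29629 Ensembl genes of the single-cell table and the same 39 among the 47729 genes of the tendon table. The HoxA cluster (chromosome 6) held 11 genes, HoxB (chromosome 11) 10, HoxC (chromosome 15) 9 and HoxD (chromosome 2) 9. By the number in the symbol, which marks a gene's paralogue group, 8 genes belonged to groups 1 to 3, 15 to groups 4 to 8 and 16 to groups 9 to 13.

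Hox genes encode homeodomain transcription factors that give cells along the body axis their regional identity. Within a cluster the order of the genes along the chromosome matches the order of their activation and their domains, so that low-numbered genes act in the head and neck region and high-numbered genes in the caudal trunk. In the limb, high-numbered HoxA and HoxD genes pattern successive segments from shoulder or hip to digits, several HoxC genes such as *Hoxc10* and *Hoxc11* are active in the hindlimb, and *Hoxa11* and *Hoxd11* take part in patterning tendon and muscle of the middle segment.

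The single cells derived from iPSCs reprogrammed from fibroblasts that carry a GFP transgene under *Scx* regulatory sequence, as a single clone of a *ScxGFP* line. Induced mesodermal cells, labelled untreated (T0), were compared with cells given recombinant human TGF-β2 at 10 ng/ml for 3 (T3), 6 (T6) or 9 days (T9), with 3 plates of 384 sorted cells at each time. T0 to T9 share the clone and the preceding mesodermal induction with CHIR99021 and cyclopamine, and no culture kept for 3, 6 or 9 days without TGF-β2 is among the samples analysed here, so that treatment and culture time cannot be told apart. Whole Achilles tendon of 2-week-old mice without *Scx* (Scx_homoKO, genotype Scx-/-) and of wild-type littermates (Scx_Wt) was sequenced in bulk from 2 samples each. The sources do not say that plates were separate cultures, so the p-values below measure the spread between plates, which may be technical.

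Promoters are shown for 4 genes whose levels changed in different comparisons below: *Hoxb4* (lower at T3), *Hoxd13* (lower at T9), *Hoxb1* (higher in cells with pluripotency markers) and *Hoxa9* (lower in the mutant tendon). Each is the 250 bases before the annotated start in RefSeq (GRCm38.p6), read 5′ to 3′ on the gene's strand, and capitals mark a motif match. The windows are chr11:96318017-96318266 (+) for *Hoxb4*, chr2:74667975-74668224 (+) for *Hoxd13*, chr11:96365508-96365757 (+) for *Hoxb1* and chr6:52227371-52227620 (−) for *Hoxa9*.
Hoxb4: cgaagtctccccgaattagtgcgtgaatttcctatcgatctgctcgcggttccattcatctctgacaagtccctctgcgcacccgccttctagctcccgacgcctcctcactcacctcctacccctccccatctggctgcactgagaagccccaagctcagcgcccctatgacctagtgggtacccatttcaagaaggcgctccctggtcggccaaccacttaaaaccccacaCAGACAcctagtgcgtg
Hoxd13: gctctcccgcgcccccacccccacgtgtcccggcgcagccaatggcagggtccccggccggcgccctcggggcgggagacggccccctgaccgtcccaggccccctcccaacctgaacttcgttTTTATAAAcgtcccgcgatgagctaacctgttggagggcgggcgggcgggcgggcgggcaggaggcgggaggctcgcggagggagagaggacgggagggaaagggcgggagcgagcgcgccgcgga
Hoxb1: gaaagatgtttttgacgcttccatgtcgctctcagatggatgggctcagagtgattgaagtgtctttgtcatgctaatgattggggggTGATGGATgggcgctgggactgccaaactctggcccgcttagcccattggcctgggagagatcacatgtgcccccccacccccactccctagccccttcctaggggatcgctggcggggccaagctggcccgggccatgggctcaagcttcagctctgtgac
Hoxa9: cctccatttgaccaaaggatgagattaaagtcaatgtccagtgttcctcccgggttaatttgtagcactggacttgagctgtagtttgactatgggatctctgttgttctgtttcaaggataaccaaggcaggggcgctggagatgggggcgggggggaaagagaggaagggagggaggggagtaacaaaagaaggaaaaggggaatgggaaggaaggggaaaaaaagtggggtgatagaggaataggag
All motifs were searched on both strands. The Smad element CAGACA was found in the *Hoxb4* window, TATAAA in the *Hoxd13* window as a pair of overlapping matches on opposite strands, and the Hox–Pbx element TGATNNAT in the *Hoxb1* window. The *Hoxa9* window held none of them. RefSeq entries were matched for 22 of the 39 genes, giving 24 windows. TATAAA was found in 4 of these 24 windows against 12.4% of the 32851 windows of all genes, TTTATG, the core of Cdx binding sites, in 5 against 10.8%, TGATNNAT in 4 against 7.68%, and CAGACA in 3 against 17.1%. These matches describe letters in a window, not bound sites.

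Of the 4608 wells, 4594 with at least 200 detected genes were used, and each plate held 1921125 to 4657093 unique molecules (UMIs). The 384 well barcodes are the same on every plate by design. The tendon libraries held 11188270 to 12398560 assigned reads. The pluripotent marker list summed to 371 to 780 counts per 1000000 UMIs of the plate (CPM) at T0, 105 to 156 at T3, 8.27 to 140 at T6 and 0.332 to 296 at T9. The epithelial list was at 382 to 495 CPM at T0 and 18.2 to 47.5 at T3, where 5 of its 5 tested genes were lower, and the part of both shifts in the Hox values over time was not tested. The tendon list was at 245 to 332 CPM at T0 and 6212 to 21393 at T9. Plates fell on either side of a gap in the number of reads that the study's mapping summary left without a feature, with all 3 T0 plates, T3-2, T6-1, T6-3 and T9-3 on the side with more such reads, and T3-1, T3-3, T6-2, T9-1 and T9-2 on the other. Results over time are therefore given with values from the more-reads side alone, a comparison chosen after seeing the data.

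All 4 clusters were transcribed in the mesodermal cells, and their summed level was lower at every later time. The 39 genes together gave 1342.5, 1472.8 and 1421.8 CPM on the 3 T0 plates. After 3 days of TGF-β2 the plates gave 632.4, 1082.5 and 776.6, after 6 days 844.6, 494.8 and 834.4, and after 9 days 453.0, 448.0 and 737.5. Every treated plate lay below every T0 plate, while the treated times overlapped with each other. Among treated plates the sum averaged 874.8 on the side with more reads without a feature and 561.0 on the other. The part of this side in the sum was not tested.

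The cluster sums differed in how far the later plates lay below T0. The HoxA sum was 295 ± 48.3 CPM in mesodermal cells and 243 ± 65.9, 200 ± 29.0 and 170 ± 52.2 at the 3 later times (mean ± SD, n = 3 plates), and HoxA plates at T0 and T3 overlapped. With library sizes scaled by TMM, HoxA plates at T9 (182.1 to 219.9) overlapped those at T0 (194.5 to 286.5) as well. HoxB stood at 264 ± 18.2, 106 ± 39.7, 110 ± 29.6 and 81.8 ± 21.7, with no treated plate within the T0 range of 243.1 to 275.5. HoxC was the most abundant cluster at T0 with 491 ± 12.8 and stood at 220 ± 83.6, 219 ± 92.5 and 135 ± 43.1 later, again with every treated plate below T0. HoxD stood at 363 ± 31.5, 261 ± 51.6, 195 ± 51.1 and 160 ± 50.4, and its highest treated plate, T3-2 at 320.2, was below the lowest T0 plate at 339.8. HoxA thus made up 20.8% of Hox UMIs at T0 and 31.1% at T9, HoxB 18.8% and 15.1%, HoxC 34.8% and 24.6%, and HoxD 25.7% and 29.2%. On treated plates with more reads without a feature HoxA averaged 240.6 CPM, HoxB 128.1, HoxC 259.9 and HoxD 246.2. On those with fewer the averages were 175.0, 76.3, 136.7 and 172.9. The part of the library side in these shares was not tested.

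**Figure D1:**
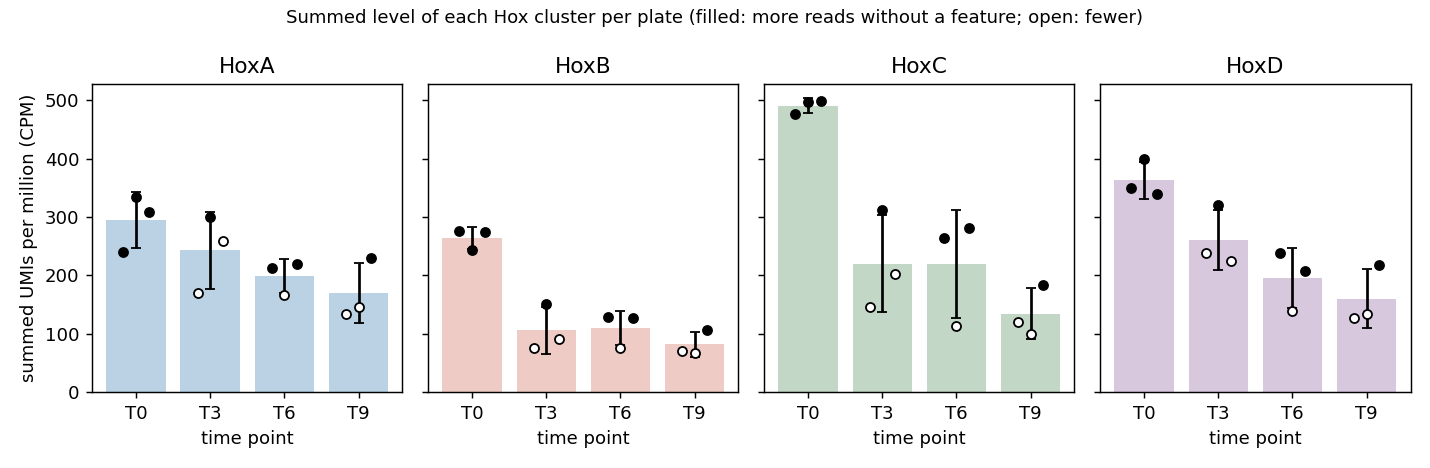
Summed CPM of each Hox cluster on each plate at T0, T3, T6 and T9; bars are means and error bars SD of 3 plates, filled points are plates with more reads without a feature and open points plates with fewer. HoxB and HoxC plates of all treated times lie below their T0 plates, whereas HoxA plates at T0 and T3 overlap.

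Most Hox UMIs came from the 5′, high-numbered end of the clusters. Paralogue groups 9 to 13 held 74.3% of Hox UMIs at T0 and 84.0%, 80.4% and 81.0% at T3, T6 and T9. Their level was 1051 ± 84.2 CPM at T0 and 439 ± 112 at T9. Groups 4 to 8 stood at 325 ± 24.2 and 97.5 ± 44.6, and groups 1 to 3 at 36.3 ± 6.0 and 10.0 ± 9.2. Treated plates with more reads without a feature averaged 683.9 CPM in groups 9 to 13, 172.5 in groups 4 to 8 and 82.8 in group 13. Those with fewer averaged 476.7, 76.2 and 77.7. T9-3, the T9 plate with more such reads, stood at 568.4, 148.6 and 71.3. The part of the library side in the shares of the groups was not tested. Group 10, with 1 gene each in HoxA, HoxC and HoxD, was the highest group at every time and held 32.6% of Hox UMIs at T0 and 35.3% at T9. Group 13 held 6.5% at T0 and 12.1% at T9, with levels of 91.7 ± 12.3 and 63.6 ± 6.7 CPM. Its members differed. *Hoxb13* gave 27, 17 and 11 UMIs on the T0 plates and 55, 60 and 89 on the T9 plates. The digit-patterning *Hoxd13* gave 288, 353 and 219 and then 77, 61 and 59, and *Hoxa13* 68, 79 and 69 and then 76, 63 and 57. These counts are not scaled to depth, with 3716419 to 4657093 UMIs on the T0 plates and 3015418 to 3681984 on the T9 plates. With depth taken into account, the fitted change of *Hoxa13* given below was upward and did not pass the test.

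Single genes spanned a wide range of CPM, a scale that needs no division by gene length because each molecule is tagged once at its 3′ end. *Hoxc10* was highest at T0, at 231, 287 and 270 CPM, followed by *Hoxd11* (139, 166 and 144), and these plates did not overlap. *Hoxa10* (109 ± 26.6), *Hoxb9* (98.4 ± 8.42), *Hoxd10* (89.7 ± 8.89) and *Hoxc9* (78.1 ± 21.04) came next, each within the spread of its neighbour in this order. At T9 the order was *Hoxa10* (73.2 ± 13.02), *Hoxc10* (72.2 ± 12.1) and *Hoxd11* (69.3 ± 27.6), which differed from each other by less than the spread between plates. The fewest molecules over all 12 plates were those of *Hoxd1* with 10, *Hoxc12* with 14 and *Hoxa4* with 27. *Hoxa4*, named here after its values were seen, had 7, 8 and 3 UMIs on the T0 plates and 0 on every T9 plate, and was called lower at T9 only with no filter on low counts (edgeR adjusted p = 0.022). In all, 7 genes (*Hoxa3*, *Hoxa4*, *Hoxa6*, *Hoxb1*, *Hoxc12*, *Hoxd1* and *Hoxd3*) did not pass the filter on low counts, and 32 were tested between times.

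**Figure D2:**
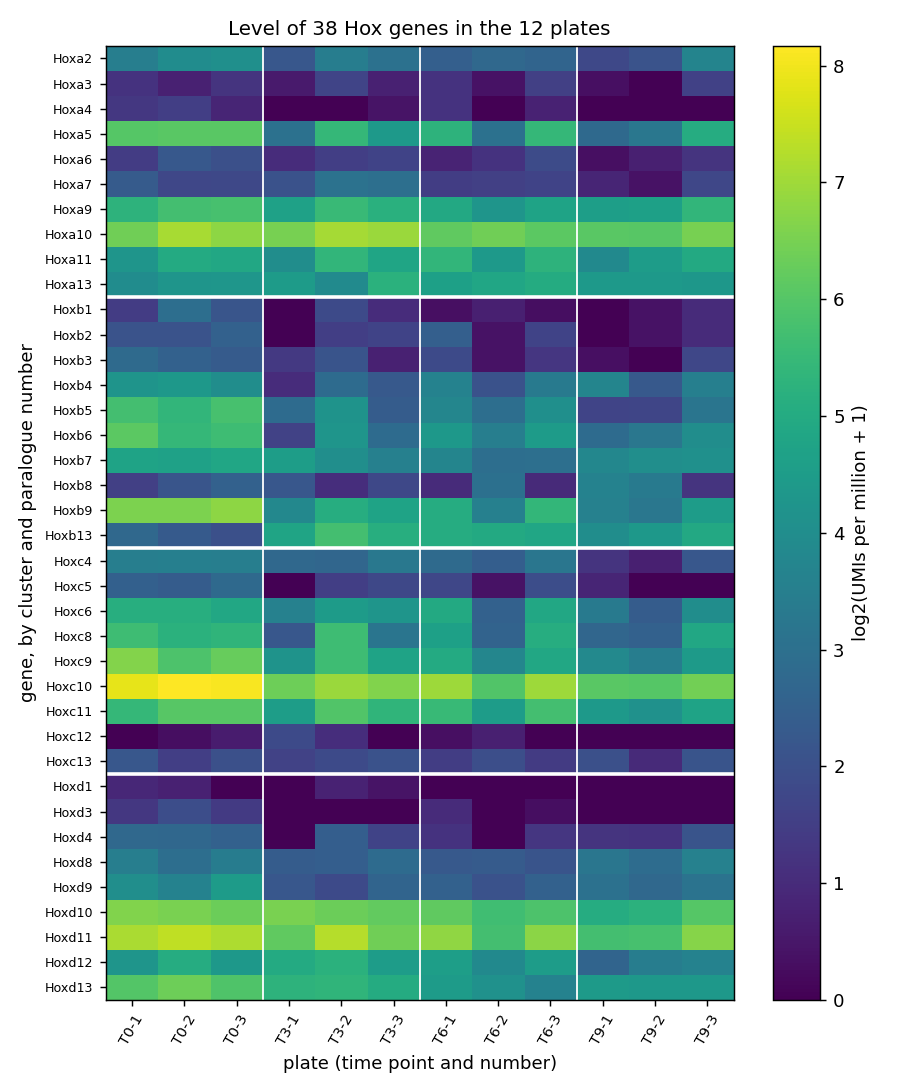
Level of Hox genes on each of the 12 plates, as log2(CPM + 1), ordered by cluster and paralogue number. The high-numbered genes *Hoxc10*, *Hoxd11*, *Hoxa10* and *Hoxd10* are high at all times, and *Hoxb13* is 2.96 to 5.80 CPM at T0 and 14.9 to 52.3 later.

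After 3 days of TGF-β2, 4 HoxB genes, 2 HoxC genes and 1 HoxD gene had fallen while *Hoxb13*, the most 5′ gene of the same HoxB cluster, had risen. Of the 32 tested Hox genes, 1 was higher and 7 were lower at T3 than at T0 (edgeR quasi-likelihood test, Benjamini-Hochberg adjusted p under 0.05), where 17% of the 13372 tested genes were higher and 16.2% lower. The median log2 fold change of the tested Hox genes was −0.69, against 0.01 for all tested genes. HoxB held 1 higher and 4 lower genes of 9 tested, HoxC 2 lower of 8 and HoxD 1 lower of 7, and none of the 8 tested HoxA genes passed the test.

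*Hoxb13*, a posterior gene active late at the tail end of the axis, gave 5.80, 3.94 and 2.96 CPM on the T0 plates and 26.03, 52.3 and 33.8 at T3. The groups did not overlap, and the log2 fold change was 3.32 ± 0.27 (SE, edgeR adjusted p = 8.7e-07). *Hoxb5*, *Hoxb6* and *Hoxb4*, which act in the neck and thorax, moved the other way. *Hoxb6* went from 68.5, 42.8 and 48.7 CPM to 2.08, 18.1 and 6.27, a log2 fold change of −2.38 ± 0.40 (edgeR adjusted p = 0.00050). *Hoxb5* went from 51.5, 40.5 and 53.8 to 6.25, 17.3 and 4.18, a log2 fold change of −2.21 ± 0.39 (edgeR adjusted p = 0.00077). *Hoxb4* went from 17.6, 19.5 and 15.1 to 1.04, 6.26 and 3.83, a log2 fold change of −1.97 ± 0.49 (edgeR adjusted p = 0.0069). In each of these 3 genes T3-2 was the highest T3 plate and still lay below every T0 plate. *Hoxb5* shares 100 exonic bases with its antisense transcript *Hoxb5os*, and the counting strand is not given, so its reads are uncertain to that extent.

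*Hoxb9*, the highest HoxB gene at T0, gave 93.6, 93.6 and 108 CPM at T0 and 13.01, 32.8 and 25.8 at T3, a log2 fold change of −1.83 ± 0.33 (edgeR adjusted p = 0.00093). *Hoxd9*, its HoxD paralogue, gave 15.5, 11.3 and 21.5 and then 3.64, 2.58 and 5.23, a log2 fold change of −1.82 ± 0.38 (edgeR adjusted p = 0.0023). *Hoxc9*, the third member of that group to fall, gave 100.1, 58.1 and 76.1 and then 17.2, 48.3 and 25.8, a log2 fold change of −1.16 ± 0.29 (edgeR adjusted p = 0.0078). In all 3 genes the plates of the 2 times did not overlap. *Hoxc10* gave 82.2, 121 and 96.9 at T3, all below the T0 plates above, with a log2 fold change of −1.18 ± 0.19 (edgeR adjusted p = 0.00034). *Hoxc10* shares 166 exonic bases on the same strand with *Hoxc5*. The paralogues in HoxA did not pass the test, with *Hoxa9* at 48.3 ± 9.01 and 35.0 ± 10.4 CPM and *Hoxa10* at 109 ± 26.6 and 115 ± 22.2.

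On the side with more reads without a feature alone, T3 has the single plate T3-2, which the fit assumes to vary like the T0 and T6 plates of that side. There the median log2 fold change of the 35 tested Hox genes was −0.67, against 0 for all 15092 tested genes. The 8 genes above kept their direction. The log2 fold change was 3.55 for *Hoxb13*, −1.60 for *Hoxb6*, −1.53 for *Hoxb5* and −1.51 for *Hoxb4*. It was −1.63 for *Hoxb9*, −2.66 for *Hoxd9*, −1.16 for *Hoxc10* and −0.73 for *Hoxc9*. The 4 HoxB values below 0 were nearer to 0 than with all plates. *Hoxa5*, *Hoxc6* and *Hoxd13*, not called in the edgeR fit above, stood at −0.68, −0.64 and −0.82 on that side. Some alternatives with all plates did call them lower. With no filter on low counts the edgeR adjusted p was 2.1e-06 for *Hoxa5*, 0.042 for *Hoxc6* and 0.023 for *Hoxd13*. DESeq2 called *Hoxa5* and *Hoxd13* (adjusted p = 0.048 for each) but not *Hoxc6*. Not every alternative with all plates called them.

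Between the treated times few Hox genes moved. From T3 to T6, 0 of 32 tested Hox genes were higher and 1 was lower, against 2.61% and 1.63% of all tested genes. That gene was *Hoxd13*, the most 5′ HoxD gene, which gave 38.0, 39.4 and 31.7 CPM at T3 and 21.5, 16.5 and 11.2 at T6. The groups did not overlap, and the log2 fold change was −1.13 ± 0.27 (edgeR adjusted p = 0.028). The call was lost in 7 of 17 alternatives, namely with only the 6 plates compared (adjusted p = 0.077), on the side with more reads without a feature (−1.16, adjusted p = 0.058) and on the side with fewer (−0.92, adjusted p = 0.19), and without T3-1, T3-3, T6-1 or T6-3 (adjusted p from 0.052 to 0.11). From T6 to T9 no Hox gene was called, against 0.935% of all tested genes higher and 0.688% lower, while 10 of the 32 and 2104 of all 13372 genes had an unadjusted p under 0.05 in edgeR. No Hox gene was called on either library side alone. DESeq2 called 2 Hox genes higher, and over all 13107 genes that it tested 344 higher and 224 lower. These 2 were *Hoxb7* (DESeq2 log2 fold change 1.07, adjusted p = 0.049) and *Hoxd8* (1.43, adjusted p = 0.019). *Hoxd8* gave 3.84, 4.14 and 3.33 CPM at T6 and 8.15, 6.42 and 10.9 at T9 with no overlap (edgeR log2 fold change 1.39 ± 0.35, adjusted p = 0.065).

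After 9 days 16 of 32 tested Hox genes were below the mesodermal level and *Hoxb13* was above it. Of 32 tested Hox genes 1 was higher and 16 were lower at T9 than at T0, against 23.6% and 21.6% of all 13372 tested genes, and the median log2 fold change was −0.98 for Hox genes and −0.02 for all. This comparison shares its T0 plates with that of T3. HoxB held 1 higher and 5 lower genes of 9, HoxC 6 lower of 8, HoxD 4 lower of 7 and HoxA 1 lower of 8. By paralogue number, 2 of 4 tested genes of groups 1 to 3 were lower, 6 of 13 of groups 4 to 8, and 8 of 15 of groups 9 to 13. On the scale of plain library size, which moves the median of all genes by −0.49 between T9 and T0, 1 Hox gene was higher and 20 were lower. On that scale 1755 of all 13372 tested genes were higher and 4468 were lower.

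*Hoxb13* remained above T0 at T9, at 14.9, 19.3 and 29.5 CPM, with a log2 fold change of 2.76 ± 0.28 (edgeR adjusted p = 2.9e-06). *Hoxb5* was at 2.17, 2.25 and 7.96, below every T0 plate, with a log2 fold change of −3.14 ± 0.42 (edgeR adjusted p = 4.2e-05). *Hoxb9* was at 11.1, 8.35 and 21.9 (−2.40 ± 0.35, edgeR adjusted p = 7.4e-05) and *Hoxb6* at 6.25, 8.35 and 14.9 (−1.99 ± 0.39, edgeR adjusted p = 0.00088). In all of these falls T9-3, on the side with more reads without a feature, was the highest T9 plate. *Hoxb4* differed from its neighbours, since it was at 12.2, 3.85 and 10.6 and did not pass the test at T9 (log2 fold change −0.46 ± 0.43, edgeR adjusted p = 0.40).

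*Hoxc10* gave 67.4, 63.3 and 85.9 CPM at T9, a log2 fold change of −1.39 ± 0.19 against T0 (edgeR adjusted p = 4.9e-05). *Hoxc9* gave 13.3, 9.96 and 20.9, a log2 fold change of −1.94 ± 0.30 (edgeR adjusted p = 0.00016). *Hoxc4*, the most 3′ HoxC gene, gave 10.3, 10.4 and 10.2 at T0 and 1.36, 0.642 and 3.65 at T9, a log2 fold change of −2.02 ± 0.44 (edgeR adjusted p = 0.0021). The 3 T0 plates of this gene were nearly equal, and all T9 plates were lower. *Hoxc5*, next to it, was detected at 4.72, 4.17 and 5.92 at T0 and on only 1 of the 3 T9 plates, at 0.815 (log2 fold change −3.39 ± 1.02, edgeR adjusted p = 0.014). *Hoxc6* was at 34.1, 34.0 and 28.5 and then at 9.23, 4.18 and 14.9 (−1.32 ± 0.44, edgeR adjusted p = 0.024). Every T9 plate of these 5 HoxC genes lay below every T0 plate. *Hoxc8* was at 49.0, 35.9 and 39.8 and then at 5.43, 4.82 and 28.9, and did not pass the test (−1.31 ± 0.68, edgeR adjusted p = 0.13).

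*Hoxa5*, a gene of the neck and lung region, was the only called HoxA gene. It gave 64.0, 66.9 and 66.7 CPM at T0 and 5.98, 8.35 and 32.2 at T9, a log2 fold change of −1.72 ± 0.54 (edgeR adjusted p = 0.018). The 5′ HoxA genes did not pass the test, with a log2 fold change of −0.28 for *Hoxa9*, −0.10 for *Hoxa10*, 0.20 for *Hoxa11* and 0.73 for *Hoxa13*. In HoxD the 4 lower genes were the 4 most 5′ ones. *Hoxd13* gave 61.8, 81.7 and 58.9 at T0 and 20.9, 19.6 and 19.6 at T9, without overlap, a log2 fold change of −1.25 ± 0.26 (edgeR adjusted p = 0.0014). *Hoxd12*, *Hoxd11* and *Hoxd10* were lower by smaller amounts, with log2 fold changes of −0.96 ± 0.30, −0.67 ± 0.23 and −0.57 ± 0.19 (edgeR adjusted p = 0.017, 0.028 and 0.027). *Hoxc11* was lower too (−1.005 ± 0.28, edgeR adjusted p = 0.010).

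*Hoxb2* and *Hoxb3*, hindbrain genes near the detection limit, complete the list. *Hoxb2* gave 3.22, 3.24 and 4.84 CPM at T0 and 0, 0.321 and 0.995 at T9 (log2 fold change −2.65 ± 0.97, edgeR adjusted p = 0.038). *Hoxb3* gave 6.01, 4.86 and 4.04 and then 0.272, 0 and 2.32 (−2.13 ± 0.81, edgeR adjusted p = 0.045). Both share exonic bases with the antisense transcript *Hoxb3os*, and both lost the call in 8 of 15 alternative analyses. On the more-reads side alone T9 has the single plate T9-3, again assumed to vary like the T0 and T6 plates. The median log2 fold change on that side was −0.89 for the 35 tested Hox genes and −0.03 for all tested genes. There *Hoxb13* had a log2 fold change of 2.94, *Hoxb5* −2.44, *Hoxb9* −2.002, *Hoxc9* −1.73, *Hoxd13* −1.62 and *Hoxc10* −1.45. *Hoxb2*, *Hoxb3*, *Hoxd10*, *Hoxd11* and *Hoxd12* were not called on that side.

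**Figure D3:**
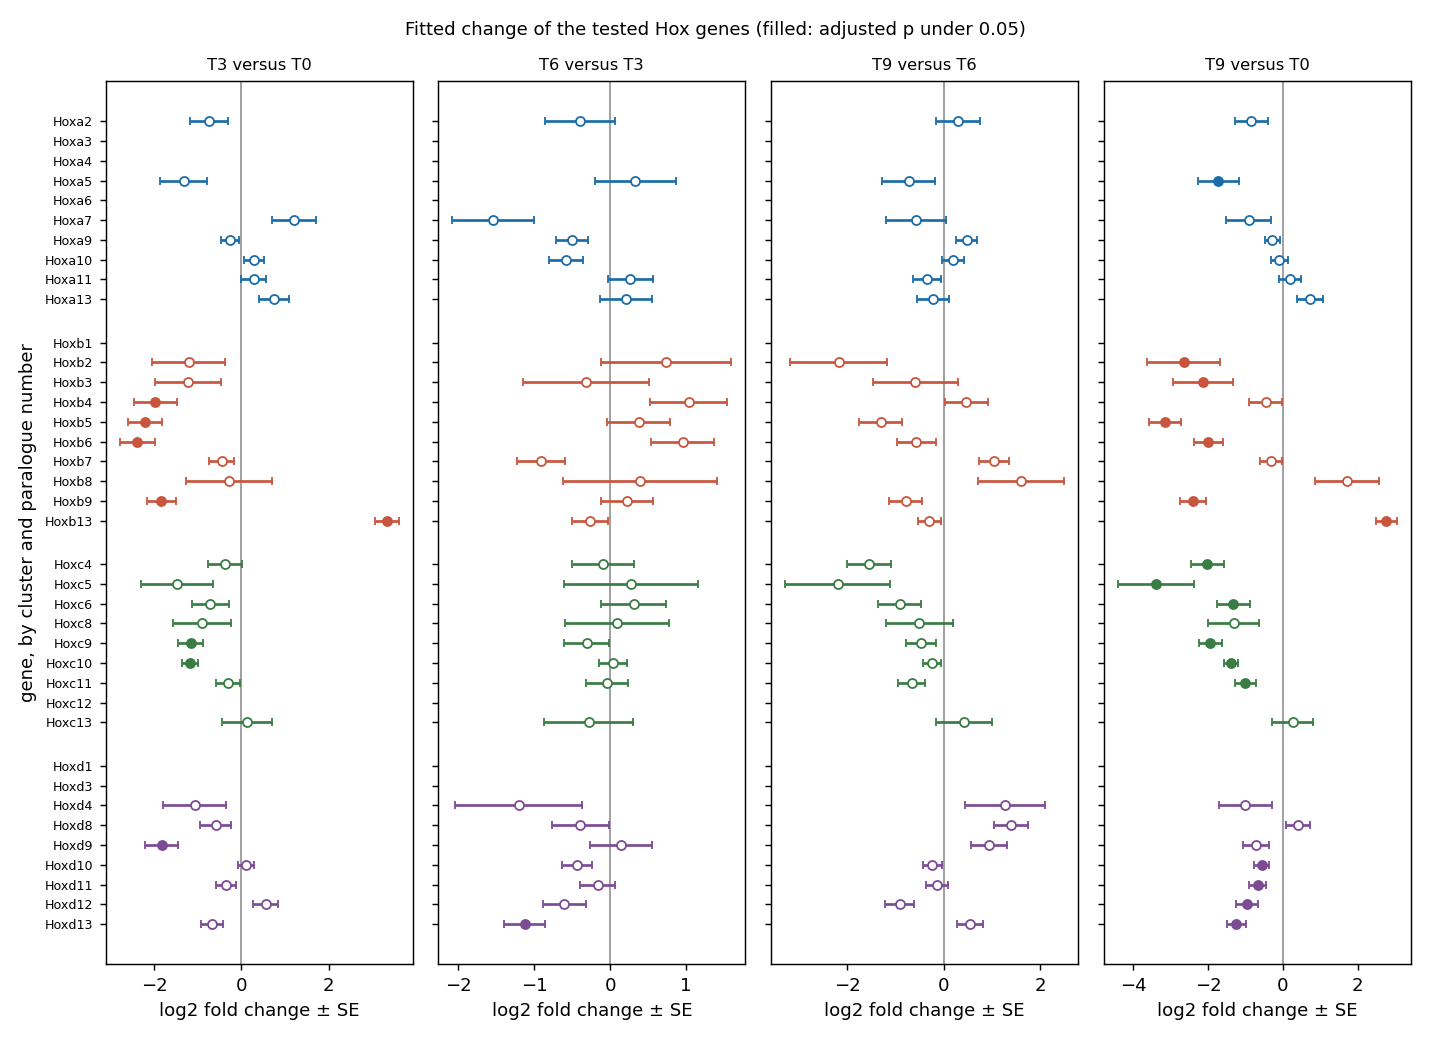
Log2 fold change ± SE of tested Hox genes between times, by cluster and paralogue number; filled points have an edgeR adjusted p under 0.05 and untested genes are blank. *Hoxb13* stands at 3.32 at T3 and 2.76 at T9 against T0, while the other called genes in both comparisons are below 0.

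Plates on the 2 library sides also differed in Hox genes when time was held as a term. Of 34 tested Hox genes, 9 were higher and 2 lower on the side with more reads without a feature, against 17.2% and 15.8% of 13992 tested genes. *Hoxc8* averaged 33.7 CPM on the 4 treated plates with more such reads and 5.40 on the 5 with fewer (log2 fold change 2.26 ± 0.22, edgeR adjusted p = 2.1e-06). *Hoxa5* averaged 38.6 and 9.76 (1.61 ± 0.22, edgeR adjusted p = 4.3e-05). *Hoxb3*, *Hoxb5*, *Hoxb6*, *Hoxb9*, *Hoxc6*, *Hoxc9* and *Hoxd11* were higher by 0.58 to 1.99 on the log2 scale. *Hoxb8* went the other way, at 1.10 and 6.76 CPM (−2.97 ± 0.46, edgeR adjusted p = 0.00014), as did *Hoxa13* (−0.74 ± 0.21, edgeR adjusted p = 0.012). *Hoxb13* was at 35.4 and 24.9 CPM and did not pass this test (0.10 ± 0.18).

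Nearly every cell at T0 held a Hox UMI. The share of cells with at least 1 Hox UMI was 98.1% ± 1.18 at T0 and 86.0% ± 12.4, 94.6% ± 3.27 and 90.5% ± 1.63 after 3, 6 and 9 days (SD, n = 3 plates). Median depths were 10175, 5703, 8794 and 7900 UMIs per cell. At full depth the T0 share was 97.3% in cells with pluripotency markers and 98.1% in the others, so it does not set mesodermal cells apart. After thinning each cell to 3000 UMIs, which kept 1071 of 1147, 1038 of 1151, 1081 of 1149 and 1111 of 1147 cells, the shares were 92.5%, 79.2%, 82.5% and 73.1%, and the treated times then differed by less than the SD of the T3 plates (12.1). A cell held 6.97 ± 0.40 different Hox genes at T0 and 2.82 ± 0.53 at T9, or 3.26 and 1.37 after thinning. *Hoxc10* was found in 69.7% ± 3.95 of T0 cells and 31.5% ± 4.31 of T9 cells, or 44.04% and 17.04% after thinning, and *Hoxb9* in 24.0% and 3.61% after thinning. *Hoxb13* was found in 3.84% ± 1.58 of T0 cells and in 15.7% ± 8.10, 19.3% ± 2.19 and 13.2% ± 1.73 at T3, T6 and T9. At T0 it was found in 3 of 73 cells with pluripotency markers (4.11%, exact 95% interval 0.856 to 11.5) and in 41 of 1074 other cells (3.82%), at median depths of 18066 and 9926.5 UMIs. Thinned to 3000 UMIs, it was in 0 of 73 marker cells, which allows a share of up to 4.11% (3 counts), and in 17 of 998 others (1.70%), a share under that limit.

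The T0 plates held cells that still carried pluripotency transcripts, and in these 25 Hox genes were lower and *Hoxb1* was higher than in the other cells. Cells with UMIs of at least 4 of 8 pluripotency genes (such as *Pou5f1*, *Nanog* and *Sox2*) numbered 33, 24 and 16 on the 3 plates, 73 of 1147 in all. The 39 Hox genes summed to 340, 268 and 321 CPM in them and to 1510, 1616 and 1506 in the other cells of the same plates. Of 28 tested Hox genes 1 was higher and 25 were lower in the marker cells (edgeR on sums per plate, with the plate as block), against 18.9% and 21.3% of 11760 tested genes. The falls took in 6 of 7 tested genes of HoxA, 6 of 7 of HoxB, 7 of 7 of HoxC and 6 of 7 of HoxD. By number they were 2 of 4 in groups 1 to 3, 10 of 11 in groups 4 to 8 and 13 of 13 in groups 9 to 13.

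*Hoxb1*, the most 3′ HoxB gene and among the earliest to be activated in the gastrulating embryo, gave 2.99, 24.0 and 45.3 CPM in the marker cells of the 3 plates and 1.504, 4.66 and 0.290 in the others. It was higher in the marker cells of every plate, from 2, 11 and 12 UMIs, with a log2 fold change of 3.21 ± 0.78 (edgeR adjusted p = 0.0031). *Hoxc10* was at 41.9, 43.6 and 37.8 in the marker cells and 263, 316 and 288 in the others (−2.78 ± 0.17, edgeR adjusted p = 4.3e-10). *Hoxd11* was at 26.9, 26.1 and 3.78 against 158, 182 and 154 (−2.91 ± 0.25, edgeR adjusted p = 5.2e-08). In both the cell groups did not overlap.

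*Hoxa11* gave 0, 2 and 0 UMIs in the marker cells and 85, 131 and 108 in the others (log2 fold change −4.20 ± 0.66, edgeR adjusted p = 5.7e-05), and shares 800 exonic bases with its antisense transcript *Hoxa11os*. *Hoxc6* (−3.67 ± 0.51), *Hoxd12* (−3.53 ± 0.56), *Hoxb7* (−3.32 ± 0.59), *Hoxc9* (−2.93 ± 0.30), *Hoxa9* (−2.83 ± 0.41), *Hoxd10* (−2.69 ± 0.27) and *Hoxa10* (−2.62 ± 0.27) followed. *Hoxa5* was the called gene with the smallest fall (−1.37 ± 0.28, edgeR adjusted p = 0.00087). *Hoxb3* and *Hoxc5* had no UMI in the marker cells, against 64 and 62 in the others, and were at least 2.63-fold and 2.55-fold lower with a floor of 3 counts over the cell group. After thinning to 3000 UMIs, 37 of 73 marker cells (50.7%, exact 95% interval 38.7 to 62.6) and 954 of 998 other cells (95.6%, 94.1 to 96.8) held a Hox UMI, whereas the unthinned shares were 97.3% and 98.1%. These intervals cover counting error only. *Cdx1*, a regulator upstream of Hox genes, was higher in the marker cells (4.01 ± 0.52, edgeR adjusted p = 7.2e-06). Of the 3 tested genes in the list of upstream regulators it was the only 1 higher, and 2 were lower (list median −2.36).

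Cells with a UMI of *Scx*, the transcription factor of the tendon lineage, were at T3 not separated from the other T3 cells by any Hox gene at the threshold. The 3 plates held 290, 322 and 321 such cells against 94, 61 and 63 others, and the Hox sum was 623, 1095 and 811 CPM in the former and 668, 1017 and 573 in the latter. Of 19 tested Hox genes 0 were called by edgeR, against 0.165% higher and 0.268% lower among 9701 tested genes, and 3 had an unadjusted p under 0.05. DESeq2 called 0, with 2 at an unadjusted p under 0.05. On simulated data for this comparison 35.8% of 2-fold and 80% of 4-fold changes were recovered, so smaller differences could be missed. *Hoxb13* was at 29.8, 59.0 and 37.5 in the *Scx*-positive cells and 12.1, 16.4 and 11.98 in the others, higher on each plate (log2 fold change 1.63 ± 0.40, edgeR adjusted p = 0.080). *Hoxc11* was at 25.2, 67.3 and 44.03 against 12.1, 23.5 and 16.8 (1.36 ± 0.38, edgeR adjusted p = 0.14). In the same fit 4 of 5 tested genes of the pluripotent list were lower in the *Scx*-positive cells, with a list median of −2.65. Of the tendon list, with *Scx* left out, 0 of 5 tested genes were called. The part of cells with pluripotency transcripts in these Hox values was not tested.

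**Figure D4:**
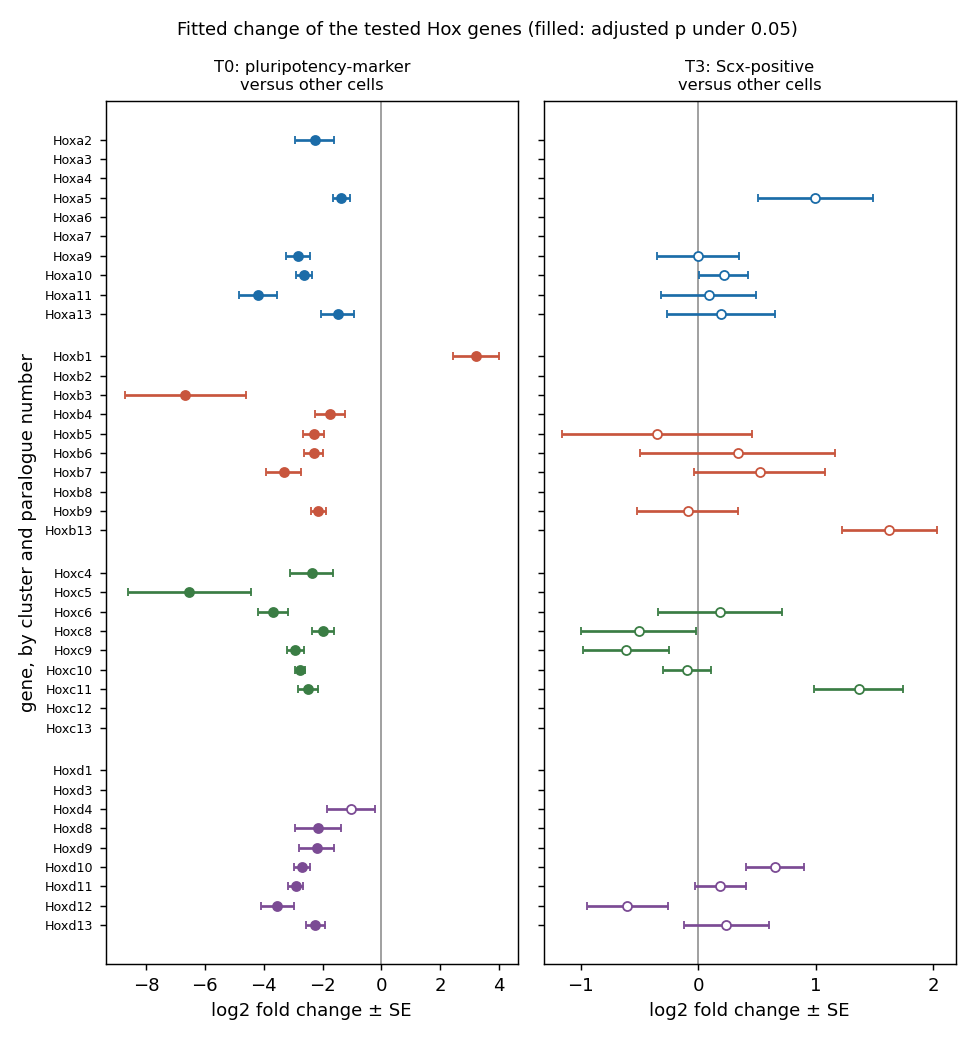
Log2 fold change ± SE of tested Hox genes in cells with pluripotency markers against other cells at T0, and in *Scx*-positive against other cells at T3; filled points have an edgeR adjusted p under 0.05. *Hoxb1* is the only called gene above 0, and the fitted values of *Hoxb3* and *Hoxc5*, which had no UMI in the marker cells, are no measure of size.

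In the postnatal Achilles tendon the highest Hox transcripts were genes of paralogue groups 8 to 11 in HoxA, HoxC and HoxD. Levels here are reads per kilobase of exon and 1000000 assigned reads (RPKM). In the Scx_Wt samples *Hoxa11* stood at 20.99 and 16.98, *Hoxa10* at 17.4 and 15.8, *Hoxc10* at 14.2 and 18.0, *Hoxd9* at 14.6 and 10.8 and *Hoxd8* at 11.9 and 11.1, neighbours in this order overlapping between samples. The highest HoxB gene, *Hoxb7*, was at 1.39 and 2.06. Paralogue groups 9 to 13 made up 77.4% and 75.5% of the Hox sum in Scx_Wt and 72.8% in each Scx_homoKO sample. *Hoxb1*, *Hoxb2*, *Hoxd1* and *Hoxd12* had no read in any of the 4 libraries. *Hoxb13*, which rose in the cultured cells, had 1 read in the 4 libraries together, and *Hoxd13* had 7, all in the second Scx_homoKO sample.

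In the tendon without *Scx*, *Hoxa9* was the only Hox gene that passed the test. *Scx* itself, the targeted gene, was lower by 1.88 on the log2 scale (edgeR adjusted p = 0.00043), with 1151 and 996 reads in Scx_Wt and 287 and 296 in Scx_homoKO. Summed per kilobase, HoxA stood at 55.5 and 48.0 in Scx_Wt and 35.9 and 35.2 in Scx_homoKO, HoxD at 30.4 and 26.3 against 22.6 and 20.1, HoxC at 29.4 and 31.9 against 31.6 and 38.1, and HoxB at 4.64 and 5.77 against 4.30 and 3.51. Within HoxA, groups 9 to 13 stood at 48.7 and 41.9 against 29.3 and 27.3, while groups 4 to 8 stood at 6.25 and 5.63 against 6.16 and 7.47 and overlapped. Both genotypes were thus apart in HoxA, HoxB and HoxD and overlapped in HoxC. Of 28 tested Hox genes 0 were higher and 1 was lower, against 1.77% and 2.07% of 14602 tested genes, and the median log2 fold change was −0.23 for Hox genes and −0.00 for all.

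*Hoxa9* gave 8.91 and 6.77 RPKM in Scx_Wt and 3.76 and 4.18 in Scx_homoKO, from 556, 463, 260 and 275 reads. The groups did not overlap, and the log2 fold change was −0.93 ± 0.19 (edgeR adjusted p = 0.026). The call was lost without the first Scx_Wt sample (−0.78, adjusted p = 0.18) and without the first Scx_homoKO sample (−0.82, adjusted p = 0.090), and its exons share 85 bases with *Mir196b*. *Hoxd9* was at 8.496 and 6.20 in Scx_homoKO (−0.75 ± 0.23, edgeR adjusted p = 0.12), *Hoxa11* at 14.0 and 9.43 (−0.65 ± 0.20, edgeR adjusted p = 0.13) and *Hoxa10* at 10.1 and 12.5 (−0.50 ± 0.18, edgeR adjusted p = 0.18). All 3 lay below both Scx_Wt samples without passing the test. *Hoxc11* lay above, at 9.46 and 11.5 against 7.61 and 6.38 (0.63 ± 0.23, edgeR adjusted p = 0.19). *Hoxd8* (0.02) and *Hoxc10* (0.05) had log2 fold changes near 0.

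*Hoxc13*, the most 5′ HoxC gene and known from hair and nail, had 0 and 0 reads in Scx_Wt and 14 and 24 in Scx_homoKO, which is at least 12.3-fold higher with a floor of 3 counts over the group. It missed the threshold in edgeR (adjusted p = 0.054) and passed it in DESeq2 (adjusted p = 0.011). The epithelial list summed to 1.61 and 1.31 CPM in Scx_Wt and 18.9 and 12.1 in Scx_homoKO, and its part in the *Hoxc13* reads was not tested. In whole tissue, fewer cells of a type and less RNA per cell cannot be told apart. The tendon list summed to 94048 and 86898 CPM in Scx_Wt and 40280 and 46547 in Scx_homoKO, cartilage to 1306 and 1154 against 304 and 277, adipocyte to 2419 and 1063 against 659 and 341, and striated muscle to 32739 and 58074 against 75962 and 79514. The neural list stood apart in the first Scx_homoKO sample, at 4139 CPM against 30.5 in the second and 466 and 450 in Scx_Wt, and the *Hoxa9* call was lost without that first sample. The part of these shifts in the Hox values was not tested.

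**Figure D5:**
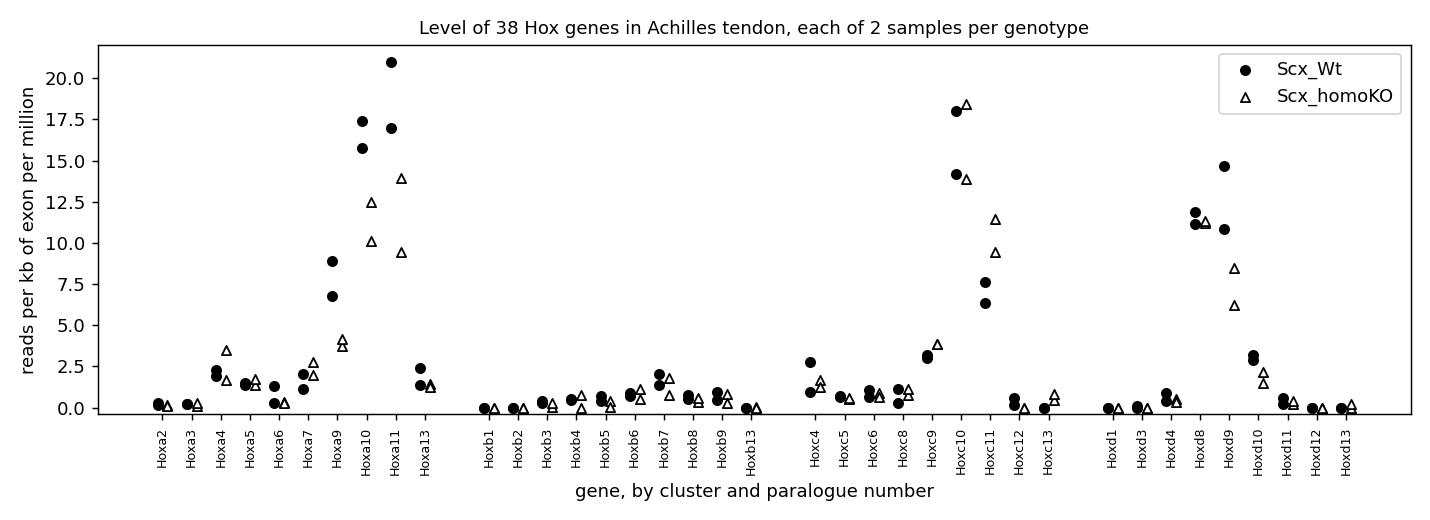
RPKM of Hox genes in Achilles tendon, with filled circles for the 2 Scx_Wt and open triangles for the 2 Scx_homoKO samples. *Hoxa11*, *Hoxa10*, *Hoxa9* and *Hoxd9* lie lower in both Scx_homoKO samples, and *Hoxa9* alone passed the test.

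Genes that act with or on the clusters were followed in lists, to be read against the 23.6% higher and 21.6% lower of all tested genes at T9, 17% and 16.2% at T3, 18.9% and 21.3% in the pluripotency-marker cells, and 1.77% and 2.07% in tendon. Among the Pbx, Meis and Pknox cofactors, which bind DNA together with Hox proteins, 1 of 9 tested genes was higher and 4 lower at T9 than at T0, among them *Pknox2* (log2 fold change 1.70), *Pbx2* (−1.34), *Meis1* (−0.78) and *Meis2* (−0.77). In the pluripotency-marker cells 0 of 9 were higher and 6 were lower, including *Meis1* (−2.50) and *Meis2* (−2.46). Among the Polycomb and Trithorax regulators, which hold the clusters silent or active, 1 of 12 was higher and 3 were lower at T9, namely *Ezh1* (1.03) and *Cbx2* (−2.97), *Ezh2* (−1.97) and *Bmi1* (−1.13). Neither list had a called gene in the Scx_homoKO tendon, where 8 and 12 genes were tested.

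Among the upstream regulators *Cyp26a1*, which degrades retinoic acid, rose by 6.12 ± 0.36 on the log2 scale from T0 to T9 (edgeR adjusted p = 1.5e-08), and *Gdf11*, a signal for the activation of posterior Hox genes, fell by 2.08. Of 4 tested upstream regulators, 1 was higher and 2 were lower at T9. In the Scx_homoKO tendon, a comparison of genotypes and not of times, *Gdf11* was at 1.45 ± 0.23 (edgeR adjusted p = 0.0083) and *Cyp26a1* at −2.19 ± 0.26 (edgeR adjusted p = 0.0018). There 1 of 3 tested upstream regulators was higher and 1 lower. The part of the shifts in tendon cell type markers in these values was not tested. Of 5 tested noncoding RNAs of the clusters, 2 were higher at T3, *Hotair* (1.19) and *Hoxa11os* (0.72), and 2 were lower, *Hoxb5os* (−3.06) and *Hoxd3os1* (−1.67). Of 7 tested genes that flank the clusters, 0 were higher and 1 was lower at T3, and 2 were higher and 2 lower at T9, with *Smug1* at −1.16. Of 5 tested limb field genes 3 were lower at T9, the hindlimb genes *Tbx4* (−3.33) and *Pitx1* (−1.60) and *Hand2* (−1.87), and none of 4 was called in the tendon.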

How the data were processed

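Single-cell RNA-seq (CEL-Seq2) was made from 12 plates and bulk RNA-seq from 4 Achilles tendon samples. The single-cell values are UMI counts per gene and well, deposited by the authors after barcode extraction and counting with UMI-tools 1.0.1, mapping to GRCm38 with HISAT2 2.2.1 and featureCounts. The bulk values are read counts per gene, deposited by the authors after Trim Galore, HISAT2 2.0.4 and featureCounts 1.5.0. The annotation release and the strand setting are not given in the sources used here. Doublets were removed by the study's sorting gate and no doublet caller was run.

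Ensembl IDs were given symbols from RefSeq tables (29528 of 29629 and 47224 of 47729 matched). Wells with at least 200 genes were kept (14 of 4608 left out), and UMIs were summed per plate. Entries outside Ensembl held 0.0642% of UMIs and stayed out of library sizes. Sums were tested over all genes with edgeR 4.0.16 (R 4.3.3, TMM, filterByExpr, quasi-likelihood test, Benjamini-Hochberg adjustment over all genes tested, threshold 0.05), with limma 3.58.1 as its base. One fit over the 12 plates served all time comparisons. Cell groups within a plate were tested with the plate as block, since both groups come from the same plate. DESeq2 1.42.0, other normalizations, no filter, thinning, leaving out each replicate and the replicate block were alternatives. The library-size scale, the library-side analyses and the crossed pairing were added after seeing the data. TMM factors were 1.16 to 1.24 at T0 and 0.74 to 0.77 on the first 2 T9 plates. Levels (CPM, and RPKM over exon length in tendon) use plain library size. Tables and figures used Python 3.11.15 with pandas 2.3.3, numpy 2.4.6, scipy 1.17.1 and matplotlib 3.10.9.

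Full values were given for called members, at most 12 per comparison by size of change, and for the highest member of each cluster; others are given by range and count, and some genes are not reported here. The members and lists were chosen with earlier results of these data known. No 2 plates or samples agreed within sampling noise (chi-square per gene 3.09 to 53.4 between plates, 22.05 and 37.0 between tendon samples). On simulated data for T9 against T0 (12887 genes), 38.5% of 2-fold and 86.6% of 4-fold changes were recovered; for the tendon comparison (14220 genes) 38.5% and 79.3%. Counting intervals do not cover biological variation.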

Additional observations from a re-analysis of the deposited data

How the results depend on the processing

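No called Hox gene changed direction under any alternative in which it was tested: of 692 recomputed values of called members 618 kept their side of the threshold and 74 did not. *Hoxb1* in the pluripotency-marker cells was tested in 4 alternatives and called in all 4. With no replicate block and without T0 replicate 2, 0 Hox genes were higher in those cells. Genes that were not called could change sign, such as *Hoxc8* at T3 against T0 (log2 fold change −0.90, and 0.07 with library side as a term). For most of these losses the cause was not tested. T3 against T0 (8 Hox genes called) gave 13 with no filter and 8 to 11 when single plates were left out, T6 against T3 (1 called) 2 with no filter, 0 from only the 6 plates compared, 0 within either library side and 0 to 2 leaving plates out. T6 to T9 (0 called) gave 2 with DESeq2, 1 with no filter, 1 with library side as a term and 0 to 3 leaving plates out (3 without T6 replicate 2, 2 without T9 replicate 3). T9 against T0 (17 called) gave 10 of 22 tested after thinning and 10 to 21 leaving plates out (10 without T9 replicate 2, 11 without T0 replicate 2 or T9 replicate 1, 21 without T9 replicate 3). From only the 6 plates compared, T3 against T0 gave 2 higher and 10 lower, and T9 against T0 2 higher and 18 lower. Beside *Hoxb13*, the higher genes were then *Hoxa7* at T3 (1.23, edgeR adjusted p = 0.041) and *Hoxa13* at T9 (0.75, edgeR adjusted p = 0.026). Leaving plates out, the library-side comparison (11) gave 7 to 13, with 7 without T6 replicate 2. The pluripotency comparison (26) then gave 20 to 24 and the *Scx*-positive one 0 to 0. With DESeq2 the pluripotency comparison gave 1 higher and 18 lower, and with 5 of the 8 pluripotency genes required 1 higher and 25 lower. In tendon (1 called) DESeq2 gave 2, no filter 4 and leaving samples out 0 to 1.

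The deviations of same-numbered plates correlated with r from −0.55 to 0.50, and those of the tendon pairs with r = 0.07. Among treated plates the sign went with the library side. Same-numbered pairs on the same side gave 0.50 (T6-3 and T9-3), 0.43 (T6-2 and T9-2) and 0.18 (T3-1 and T9-1), and those across sides lay below 0. Differently numbered plates of the same side also reached 0.48 (T3-2 and T9-3). This check therefore cannot decide whether plates were paired by number. With the replicate block the Hox counts were 9 (T3 against T0), 1 (T6 against T3), 0 (T9 against T6), 16 (T9 against T0) and 4 (tendon: *Hoxa9*, *Hoxa11*, *Hoxd9* and *Hoxc13*), and with the crossed pairing 1 in tendon. With no replicate block the cell-group counts were 0 (*Scx*-positive) and 23 (pluripotency).

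The share of cells with a Hox UMI was 99.6% at T0 with at least 1000 genes per cell, 92.5%, 82.5% and 73.1% at T0, T6 and T9 after thinning, and 86.2%, 65.9%, 73.0% and 60.4% at T0 to T9 when 2 UMIs were required. Hox genes per cell were 3.26, 1.83 and 1.37 after thinning and 3.38, 1.32, 1.67 and 1.08 with 2 UMIs. Cells whose highest-numbered Hox gene was of group 13 made up 40.8%, 31.5%, 39.7% and 32.0% over the 4 times, but 22.02%, 17.9% and 15.9% at T0, T6 and T9 after thinning and 21.7%, 14.1%, 15.8% and 11.4% with 2 UMIs. On the TMM scale the sums at T0 and T9 were 249.5 and 196.8 for HoxA, 222.7 and 95.3 for HoxB, 414.2 and 156.1 for HoxC, 306.5 and 185.0 for HoxD, 273.8 and 111.1 for groups 4 to 8, 888.2 and 511.4 for groups 9 to 13 and 1193 and 633.3 for all Hox genes. Without length, groups 9 to 13 held 72.8% in Scx_homoKO. Depth limited the low genes and every share per cell.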
